A study of Mus musculus with 6 samples.

Results

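The genes of retinoic acid synthesis and response described here are Aldh1a1, Aldh1a2, Rara, Rarb, Rxra, Crabp1, Crabp2, Cyp26b1 and Stra6. They were chosen by name, 9 of the 18193 genes that the arrays name, and every probe set annotated to 1 of these genes alone was taken, 11 of 45037. A probe set is the group of short probes on the array that together read a transcript. Rxra had 3 of them and each of the other 8 genes had 1. The Rxra probe set 1430497_at lay below the filter on dim values (a mean over the hearts above 5.38 log2 was required), and the other 10 were tested.

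The arrays measured RNA of whole hearts of 6 mice of the strain given as C57B6, 3 wild-type and 3 labelled EphB4 mutant, on Affymetrix Mouse430_2 arrays. EphB4 is the receptor of ephrin-B2 in vessel-lining cells, and the series title places the hearts in a study of ventricular wall formation. The sources used here give neither the age of the mice nor the kind of mutation, nor any promoter or Cre line behind it. Descriptions of 4 hearts (wild-type 1, wild-type 2, mutant 1, mutant 2) start with the letters eI. Those of the other hearts, wild-type 3 and mutant 3, start with eM, and what the letters stand for is not said. All values are levels as log2 intensity, or differences of them, so a difference of 1 is a doubling. Intensities of different probe sets are not on a common scale, so levels are compared between hearts and not between genes.

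Retinoic acid is made from vitamin A. Stra6 is a membrane receptor that takes up vitamin A bound to its plasma carrier, retinol dehydrogenases turn retinol into retinaldehyde, and the retinaldehyde dehydrogenases Aldh1a1 and Aldh1a2 make retinoic acid. The binding proteins Crabp1 and Crabp2 carry it, Crabp2 towards the nucleus, and Cyp26 enzymes such as Cyp26b1 break it down. Inside the nucleus it binds receptors of the Rar family, which sit on DNA as pairs with an Rxr partner, and Rarb is itself a target switched on by retinoic acid. In the embryonic heart Aldh1a2 is known as the enzyme of the venous pole and, later, of the epicardium, the outer cell layer, and retinoic acid is known for its part in shaping atria and outflow and in growth of the compact wall.

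Some genes that retinoic acid switches on, Rarb and Cyp26a1 among them, are known for receptor sites close to their start. A receptor pair binds direct repeats of a short half-site, searched here as AGGTCA or as its variants AGTTCA and also GGGTCA and also GGTTCA, on both strands, with 1, 2 or 5 bases between the copies. In RefSeq windows of GRCm38.p6 from 250 bases before to 50 after a gene's start, 8 of the 9 genes were matched, with 16 windows. Rarb alone of these 8 held such a repeat, with a spacing of 5, from base -53 to base -37 relative to the start. That spacing occurred in 32 of 32851 windows of the same length, or 0.0974%, against 0.222% for a spacing of 1 and 0.268% for a spacing of 2. Of the 35 other pathway genes with a window, 2 held a repeat, Cyp26a1 with a spacing of 5 on the opposite strand and Bco1 with a spacing of 1. Below are the 100 bases before the start of Rarb (chr14:16575477-16575576, minus strand) and of Cyp26a1 (chr19:37697708-37697807, plus strand), shown because both hold the repeat. Capitals mark the half-sites of that repeat, and a half-site outside it stays in lower case. The same stretch is given for Aldh1a1 (chr19:20601868-20601967, plus strand, at the downstream of its 2 listed starts) and Aldh1a2 (chr9:71215689-71215788, plus strand), the synthesis genes that the results turn on. Their windows held none of the repeats searched, and their capitals mark the common promoter motif CCAAT, which 37.4% of all windows held on either strand. A match is a description of letters and not a measured binding site.
Rarb: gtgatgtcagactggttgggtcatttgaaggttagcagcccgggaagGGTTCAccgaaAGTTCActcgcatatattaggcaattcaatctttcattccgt
Cyp26a1: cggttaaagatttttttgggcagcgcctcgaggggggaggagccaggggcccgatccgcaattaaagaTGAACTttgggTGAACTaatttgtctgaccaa
Aldh1a1: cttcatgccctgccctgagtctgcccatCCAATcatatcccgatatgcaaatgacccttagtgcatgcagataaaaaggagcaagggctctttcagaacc
Aldh1a2: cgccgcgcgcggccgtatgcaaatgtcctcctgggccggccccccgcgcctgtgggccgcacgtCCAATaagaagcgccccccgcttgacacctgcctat

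The RNA of the mutated gene did not check the labels. Ephb4 read 7.83, 8.20 and 8.06 in wild-type and 8.14, 7.93 and 8.06 in mutant hearts at its probe set, which overlap, with a difference of 0.01 (95% confidence interval -0.29 to 0.32). Whether that probe set lies in the changed stretch of the gene is not given in the sources, so mutant means labelled as such throughout. The hearts differed by more than genotype. The cardiomyocyte genes Tnnt2 and Myh7 read above 13.8 in every heart (lowest 13.85 and 14.46). As a sign of RNA quality, beta-actin read higher at its 3-prime than at its 5-prime control probes, by 0.51 and 0.77 in eM and by 0.28 to 0.41 in eI hearts. A ribosomal RNA control read 11.62 and 12.34 in eM hearts, above the 9.75 to 10.42 of eI hearts. Xist, transcribed in females, read above 11.5 in the wild-type hearts and mutant 2 (lowest 11.51) but 6.73 and 6.78 in mutants 1 and 3, so sex was partly confounded with genotype. In limma, a linear model fitted to all 27022 probe sets above the filter, 3160 (11.7%) differed between eM and eI hearts at an adjusted p under 0.05, and 0 between genotypes. Without mutant 3 the first count was 1, and it ranged from 815 to 4333 without each of the other hearts in turn. Since these are whole hearts, fewer cells of a type and less RNA per cell cannot be told apart.

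No retinoic acid gene differed between mutant and wild-type hearts beyond the spread of 3 hearts a side. None of the 9 genes passed the threshold, as no probe set on the array did (0 of 9 genes against a background of 0% of 27022 probe sets, limma, smallest adjusted p of these genes 0.9999). None did at an unadjusted p under 0.05 either, where 1.17% of probe sets did. The median difference of the 9 genes, mutant minus wild-type, was -0.003, and it was 0.003 over all 13572 genes tested. Of the 9, 4 were higher and 5 lower in the mutant mean, and at the probe set of highest mean none was without overlap between genotypes, against 4.39% of genes. The smallest two-sided p that an exact permutation test can give with 3 against 3 hearts is 0.1.

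**Figure D1:**
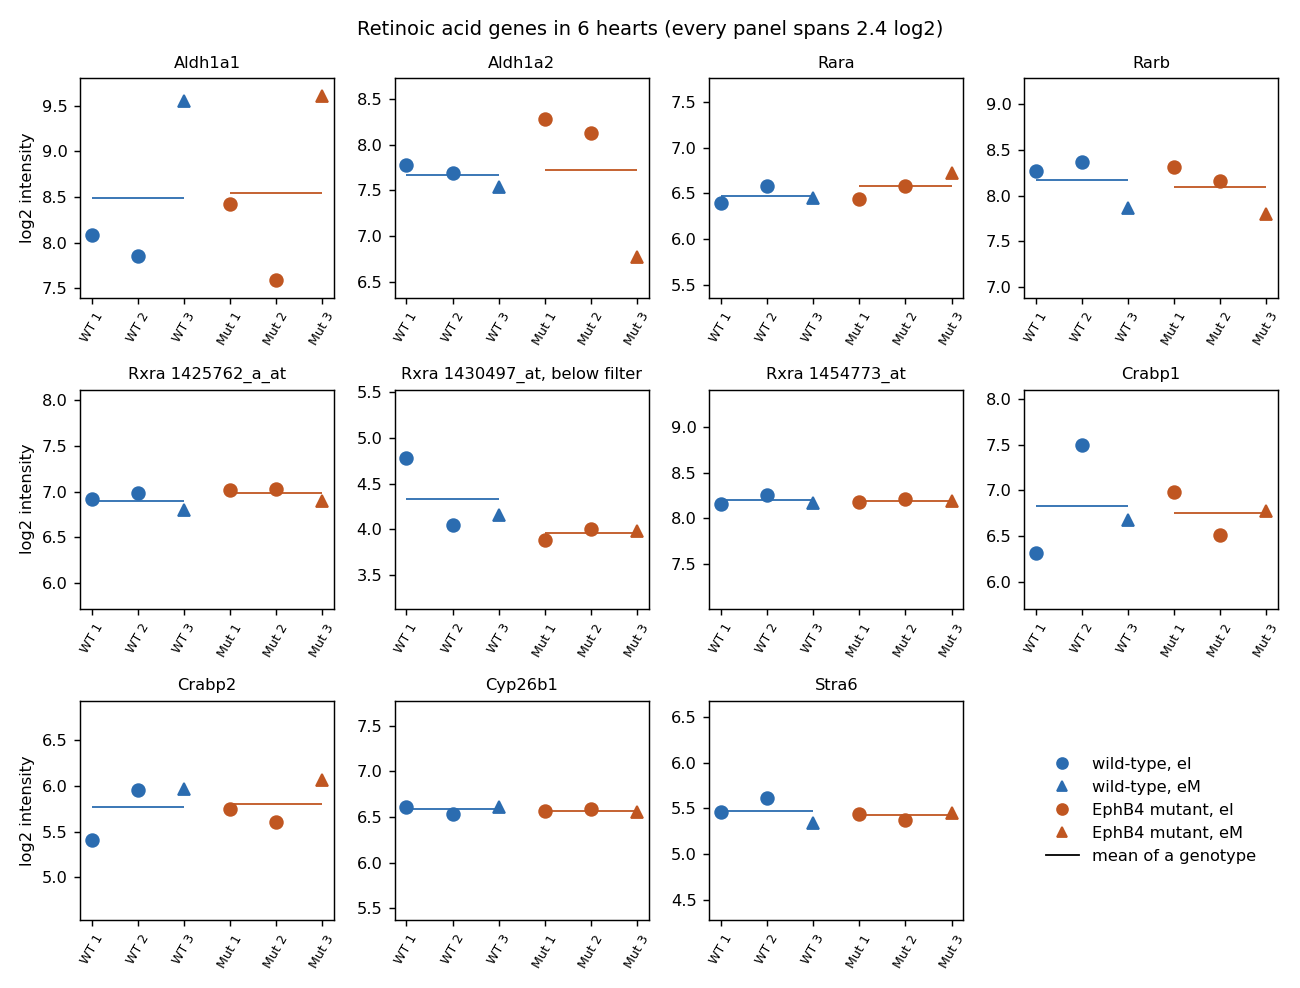
Log2 intensity of each of the 11 probe sets in the 6 hearts, blue for wild-type and orange for EphB4 mutant, circles for eI and triangles for eM hearts, with the mean of each genotype as a line. Every panel spans the same range, so that the eM hearts stand out at Aldh1a1 (9.55 and 9.61) while Cyp26b1 stays between 6.53 and 6.61.

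Among the synthesis enzymes, Aldh1a2 was the gene whose genotype difference changed most between the kinds of heart. It read 7.77, 7.69 and 7.54 in wild-type 1, 2 and 3, and 8.28, 8.13 and 6.76 in mutant 1, 2 and 3. The eI mutants were thus the highest hearts and the eM mutant the lowest, with the wild-type hearts close together between them. The means were 7.66 ± 0.12 in wild-type and 7.73 ± 0.84 in mutant hearts (SD, n = 3 each), a difference of 0.06 with a 95% confidence interval of -0.87 to 0.99 (exact permutation p = 1). Taken inside each kind of heart, mutant minus wild-type was 0.48 for eI and -0.77 for eM. An interaction of genotype and letters, the test of whether the mutant effect differs between eI and eM, gave -1.25 (95% confidence interval -1.74 to -0.76). Its unadjusted limma p was 0.00159 and its adjusted p was 0.909, with 0 of 27022 probe sets called and 5.32% at an unadjusted p under 0.05. The eM part of that term rests on 1 heart per genotype.

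Aldh1a1, which is also made in other adult organs, differed by the letters far more than by genotype. It read 8.08, 7.85 and 9.55 in wild-type 1, 2 and 3, and 8.43, 7.59 and 9.61 in mutant 1, 2 and 3. Mutant and wild-type means differed by 0.05, with an interval of -1.44 to 1.54 that leaves room for changes of more than a doubling either way (exact permutation p = 0.9). With the letters as a block the interval was -0.47 to 0.57 (limma adjusted p = 0.998). The difference was 0.04 within eI and 0.06 within eM.

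No receptor differed between genotypes beyond its spread at a tested probe set. Rara, the broadly expressed retinoic acid receptor, read 6.40, 6.58 and 6.45 in wild-type and 6.44, 6.58 and 6.72 in mutant hearts, a difference of 0.11 (95% confidence interval -0.16 to 0.38). Rarb, the receptor that retinoic acid induces, read 8.27, 8.36 and 7.86 in wild-type and 8.31, 8.16 and 7.80 in mutant hearts. Its groups overlapped fully, with a difference of -0.07 (-0.52 to 0.37). Rxra, the partner of both and the Rxr gene known for its need in ventricular wall growth, read 8.16, 8.26 and 8.17 in wild-type and 8.17, 8.21 and 8.19 in mutant hearts at its brightest probe set. There the difference was 0.00 to 2 decimals, with an interval of -0.21 to 0.21. Its probe set 1425762_a_at gave 0.08 (-0.16 to 0.32), with 6.92, 6.99 and 6.81 in wild-type and 7.02, 7.03 and 6.89 in mutant hearts. Its dim probe set 1430497_at, which was not tested, was the only 1 of the 11 without overlap between genotypes, with 4.778, 4.052 and 4.157 in wild-type and 3.883, 3.999 and 3.987 in mutant hearts (exact permutation p = 0.1). Of the 27022 tested probe sets, 1263 were without such overlap.

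Of the carriers, Crabp1 was uneven among wild-type hearts. Crabp1, a binding protein known from neural crest and other embryonic tissue, read 6.31, 7.50 and 6.67 in wild-type and 6.98, 6.51 and 6.78 in mutant hearts. Wild-type 2 was the highest and wild-type 1 the lowest of all 6, so the spread among wild-type hearts (SD 0.61) exceeded the difference of -0.07 (95% confidence interval -0.80 to 0.66). Beside it, the summed level (log2 of summed intensities) of the neuron, neural crest and Schwann cell markers, 6 of 8 of them measured, ran from 8.76 to 9.11 in the eI and from 9.04 to 9.64 in the eM hearts, and the neuronal tubulin Tubb3 read 7.77 in wild-type 2 and 6.01 in wild-type 1, but was highest in mutant 3, at 8.70. Whether such cells have a part in the Crabp1 values was not tested. Crabp2 read 5.40, 5.95 and 5.97 in wild-type and 5.75, 5.60 and 6.06 in mutant hearts, a difference of 0.03 (-0.44 to 0.50).

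The uptake and breakdown genes spread little over the 6 hearts. Cyp26b1, a retinoic acid hydroxylase, read 6.61, 6.53 and 6.61 in wild-type and 6.56, 6.59 and 6.55 in mutant hearts, all within 0.1 log2, with a difference of -0.02 (95% confidence interval -0.23 to 0.19). Stra6, the uptake receptor, read 5.45, 5.61 and 5.34 in wild-type and 5.44, 5.38 and 5.45 in mutant hearts, a difference of -0.05 (-0.30 to 0.21). Stra6 lay just above the filter, and dim probe sets show less of a change in RNA than bright ones do.

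**Figure D2:**
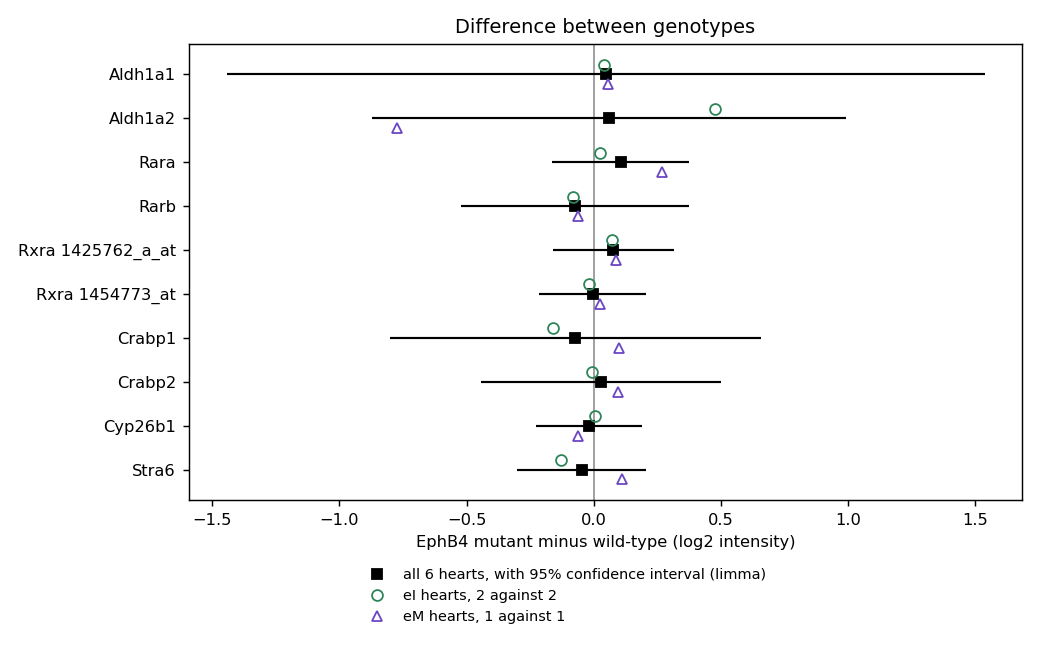
Mutant minus wild-type difference in log2 intensity for the 10 probe sets tested, with the limma estimate and its 95% confidence interval as squares and lines, and the same difference within eI (circles) and within eM hearts (triangles). Every interval includes 0, and the circle and the triangle lie farthest apart at Aldh1a2, at 0.48 and -0.77.

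Compared by the letters of the descriptions, with genotype as a term, the eM hearts had more Aldh1a1 and less Rarb. Aldh1a1 was 1.59 ± 0.23 log2 higher (SE), or 3.02-fold (95% confidence interval 1.04 to 2.14 log2, limma adjusted p = 0.012). Its eM hearts (9.55 and 9.61) lay above all 4 eI hearts (7.59 to 8.43), by 1.58 among wild-type and 1.60 among mutant hearts. Rarb was 0.44 ± 0.09 lower (difference -0.44, 1.36-fold, interval -0.67 to -0.22, limma adjusted p = 0.034), by -0.45 among wild-type and -0.43 among mutant hearts. These 2 of 9 genes stand against a background of 9.99% of genes called, 4.3% higher and 5.7% lower. Without overlap between eM and eI were 4 of the 9, 2 higher and 2 lower, a share of 44.4% that is near the 44.6% of all genes (20.8% higher, 23.8% lower). The comparison is of 2 eM with 4 eI hearts.

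The call of Aldh1a1 was lost without either eM heart, which leaves the comparison with 1, although the size stayed (1.60 with adjusted p = 0.088 without wild-type 3, 1.58 with adjusted p = 0.183 without mutant 3, limma). That of Rarb was lost in 7 of 13 alternatives, in all of which the difference was between -0.48 and -0.41. Leaving out a heart ended it for wild-type 3 (limma adjusted p = 0.145), mutant 1 (0.128), mutant 2 (0.11) and mutant 3 (0.239). With no filter it was 0.055, with each array centred on its median 0.058, and with the Xist level as a covariate 0.095. The signs of RNA quality given above moved with the letters as these genes did, and their part in the differences was not tested.

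Aldh1a7, a close copy of Aldh1a1 in the mouse genome whose RNA could share its probes, has its own probe set below the filter. It read 4.58, 4.69, 4.92 and 4.56 in the eI hearts and 5.77 and 6.02 in the eM hearts, so both probe sets were higher in the eM hearts, and which of the copies gave the signal was not tested.

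Aldh1a2 was lower in the eM hearts in this comparison but did not pass the threshold, with a difference of -0.82 ± 0.27 (SE, 95% confidence interval -1.46 to -0.18, limma adjusted p = 0.102). The difference was -0.19 among wild-type and -1.44 among mutant hearts, so mutant 3 gave most of it. Without wild-type 3 it was -1.44 with an adjusted p of 0.028, and without mutant 3 it was -0.19 with an adjusted p of 0.553 (limma). Crabp2 differed by 0.34 (interval -0.06 to 0.73, limma adjusted p = 0.228), and passed the threshold only without wild-type 2, at 0.46 with an adjusted p of 0.043. The others had intervals that included 0: 0.08 (-0.18 to 0.35) for Rara, -0.02 (-0.23 to 0.19) for the brightest probe set of Rxra, -0.10 (-0.89 to 0.69) for Crabp1, 0.01 (-0.20 to 0.22) for Cyp26b1 and -0.08 (-0.33 to 0.18) for Stra6. The Rxra probe set 1425762_a_at gave -0.14 (-0.34 to 0.07). Its eM hearts, at 6.81 and 6.89, lay below the eI hearts at 6.92 to 7.03, as at 5491 of the 27022 tested probe sets.

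**Figure D3:**
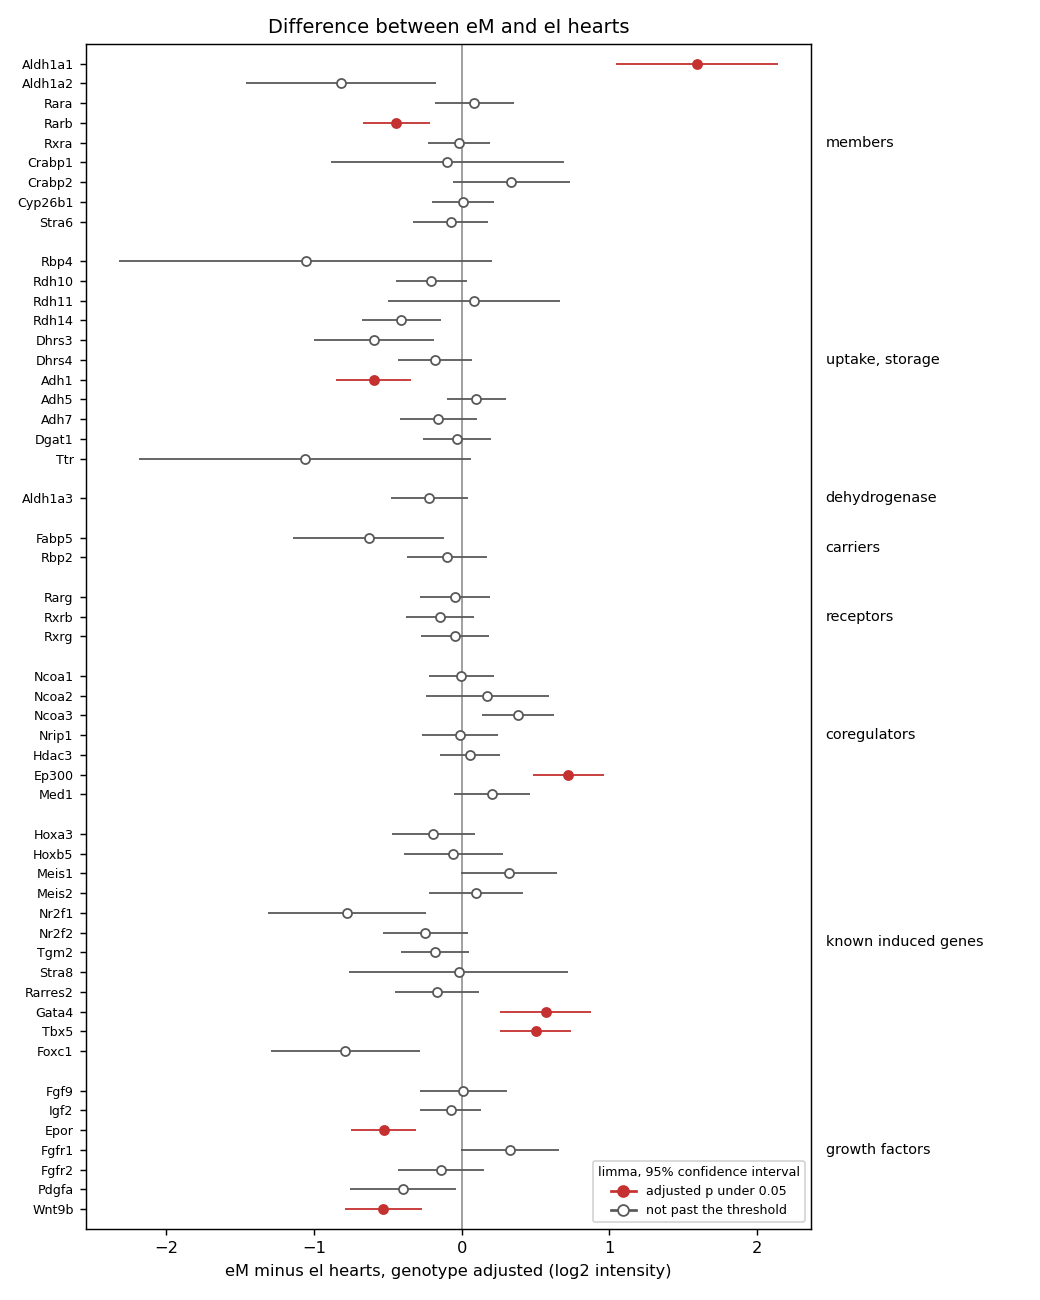
Difference of eM minus eI hearts in log2 intensity, adjusted for genotype, with 95% confidence intervals from limma, for the 9 genes and for 43 other genes of the pathway lists at their probe set of highest mean, grouped by role. Filled red points passed an adjusted p of 0.05. Aldh1a1 lies farthest from 0 at 1.59, and 8 points in all are filled.

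The epicardium is the known site of Aldh1a2 in the later embryonic heart, so its markers were read beside it. All 10 epicardial and mesothelial markers were measured. Their summed level was 12.30 to 12.75 in the eI and 12.94 to 13.10 in the eM hearts. Of the 10, 7 were higher and 3 lower in eM, with a median difference of 0.16 against -0.03 over all genes. Limma called 3 of them higher and 1 lower, 40% against 9.99% of all genes. The first markers of the list were Wt1, a transcription factor of epicardial cells, at 7.86 to 8.49 in the eI and 8.98 and 9.27 in the eM hearts, and Tbx18, at 9.64 to 10.34 and 10.70 and 10.76. Tcf21, a marker of epicardium and of the fibroblasts that derive from it, read 9.18 to 9.70 in eI and 9.58 and 9.37 in eM. In mutant hearts 9 of the 10 read higher than in wild-type, the median difference being 0.35, and limma called 0. The part of epicardial cells in the Aldh1a2 values was not tested.

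Markers of fibroblasts and cushion mesenchyme were read in the same way. Of these 8, all measured, 7 were lower in the eM hearts, with a median difference of -0.84. Their summed level was 14.03 to 14.43 in eI and 12.95 to 13.75 in eM, lowest in mutant 3. Limma called 1 of the 8 higher and 2 lower in eM, 37.5% against 9.99% of all genes. Without overlap between eM and eI were 5 of the 8, or 62.5%, against 44.6% of all genes. The first of the list were the collagens Col1a1, with 9.60 in wild-type 3 and 8.64 in mutant 3, Col1a2 with 11.08 and 10.51, and Col3a1 with 12.67 and 12.02. Within eI the mutant minus wild-type differences were 0.61, 0.14 and 0.28 for these 3, and within eM -0.96, -0.58 and -0.66. The signs are those of the 0.48 and -0.77 of Aldh1a2, and are given for these 3 genes only. Each eM difference is of 1 heart per genotype. The exception to the lower levels in eM was Sox9, higher in both eM hearts at 8.25 and 7.98 against 7.23 to 7.68. The part of these cells in the Aldh1a2 values was not tested.

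**Figure D4:**
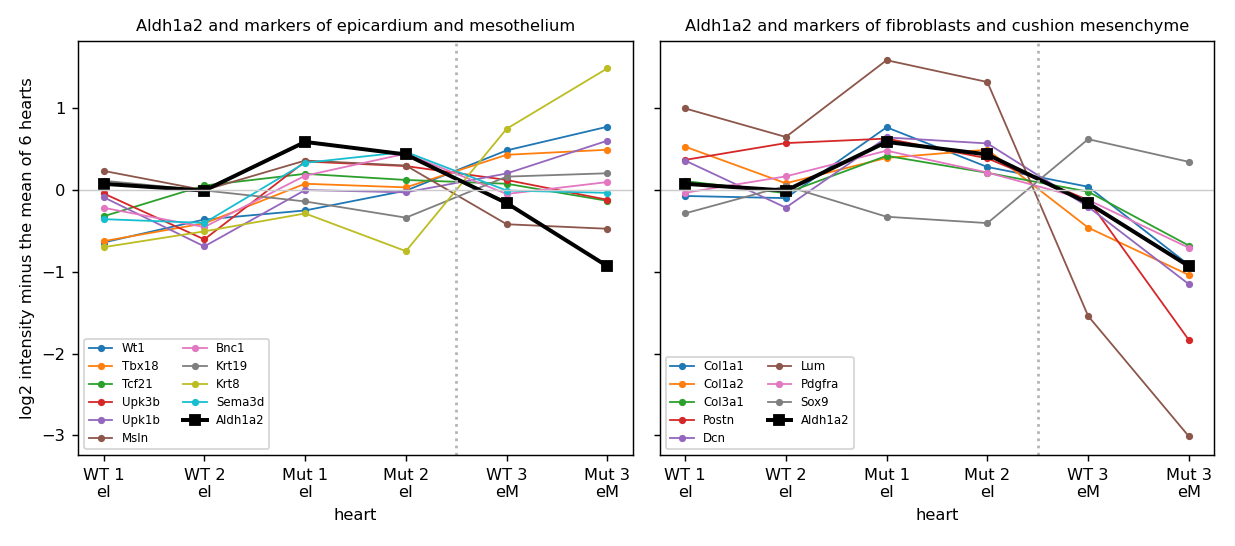
Log2 intensity minus the mean of the 6 hearts for Aldh1a2 (black squares) and for markers of epicardium and mesothelium (left) or fibroblasts and cushion mesenchyme (right), 1 line per gene, with eI hearts left of the dotted line and eM hearts right of it. Lines only guide the eye. Aldh1a2 is lowest in mutant 3, where 7 of the 8 fibroblast and cushion markers, Sox9 being the exception, lie below their mean. Wt1 and Krt8, picked from the 10 epicardial and mesothelial markers, lie above theirs in that heart. Of those 10 markers, 7 were higher and 3 lower in eM than in eI hearts.

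Markers of other cell types were read beside the Aldh1a1 and Rarb differences. The eM hearts had lower summed levels of macrophage markers (9.75 to 10.22 against 10.67 to 10.90, 5 of 5 tested genes lower, median -0.71) and of erythroid markers (13.45 to 13.47 against 13.69 to 14.46, 4 of 4 lower, median -1.47). Liver and yolk sac markers summed to 8.06 to 8.27 against 9.33 to 12.23 (6 of 6 lower, median -0.72), with Afp, the fetal serum protein, at 3.81 and 3.03 in the eM hearts against 7.77 to 11.83. Endothelial and endocardial markers summed to 12.54 to 12.69 against 12.92 to 13.00 (5 of 8 lower, median -0.14). Cardiomyocyte markers went both ways, with sums of 16.65 to 16.72 against 16.66 to 16.70 and a median of -0.05. Of these 8, limma called 2 higher in eM, Myh6 (0.67) and Ryr2 (0.76), against 4.3% of all genes. Without overlap were 4 of the 8, or 50%, near the 44.6% of all genes. Called lower in eM were 2 of 5 macrophage, 2 of 4 erythroid, 1 of 6 liver and yolk sac and 1 of 8 endothelial markers, against 5.7% of all genes. The mean level of the 8 cardiomyocyte markers was 13.12 to 13.14 in eM against 13.00 to 13.01 in eI hearts. Lung and foregut markers, 4 of 6 tested, had a median of -0.24 with sums of 7.97 to 8.01 against 8.01 to 8.30. The part of these cells in the retinoic acid gene values was not tested.

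The rest of the pathway was read from lists of 54 further gene names, 48 of them measured and 43 above the filter. Between genotypes 0 of 43 passed (limma, background 0%), with a median of -0.03, 19 higher and 24 lower. Of the retinol and retinaldehyde handling genes, Rdh10, the main retinol dehydrogenase of the embryo, differed by 0.16, and Ttr, which carries the retinol-binding protein in plasma, by -0.73. Ttr read 9.62 in wild-type 2 against 7.09 to 7.87 in the other hearts, and that heart also had the highest Afp, at 11.83. The third retinaldehyde dehydrogenase, Aldh1a3, differed by -0.16, the carriers Fabp5 and Rbp2 by 0.21 and -0.11, the receptors Rarg and Rxrg by 0.06 and -0.02, and the coregulators Ncoa1 and Nrip1 by -0.11 and 0.10. Among genes known as induced by retinoic acid, 6 of 12 were higher and 6 lower in mutant hearts. The smallest unadjusted p was that of Hoxa3, at 6.00, 6.18 and 5.74 in wild-type and 5.60, 5.66 and 5.60 in mutant hearts, without overlap (-0.35, limma adjusted p = 0.9999), followed by Nr2f2 with 0.19. Of growth factors and receptors tied to epicardial retinoic acid, Fgf9 differed by -0.24 without overlap and Wnt9b by -0.22. Thus 2 of the 43 genes were without overlap, both lower in mutant hearts, against 4.39% of all genes in either direction and 2.25% lower.

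Between eM and eI hearts 3 of the 43 passed as higher and 3 as lower (limma, background 4.3% and 5.7%), with a median of -0.10 against -0.03 over all genes, and 30 of 43 lower. Adh1, an alcohol dehydrogenase that also oxidises retinol, fell by 0.60, from 6.09 to 6.49 in eI to 5.77 and 5.70 in eM. Epor, the erythropoietin receptor, fell by 0.53, with 8.20 to 8.36 in eI and 7.81 and 7.75 in eM, beside the lower erythroid markers given above. Wnt9b fell by 0.53. Ep300, a histone acetyltransferase and coactivator, rose by 0.72, from 9.41 to 9.73 in eI to 10.17 and 10.32 in eM. The transcription factors Gata4 and Tbx5 rose by 0.57 and 0.50. Both are on the list of genes known as induced by retinoic acid, and the heart muscle itself expresses them. Of the 12 tested genes of that list, limma called these 2 higher and 0 lower, 16.7% against 9.99% of all genes. In all, 4 of the 12 were higher and 8 lower, and 3 higher and 3 lower were without overlap, 50% against 44.6% of all genes. Counted anew in each alternative, the 6 pathway calls became 2 without mutant 1, 0 without mutant 2 and 1 with the Xist level as a covariate. They also became fewer without wild-type 3 or mutant 3, each of which leaves 1 eM heart. The count was 9 without wild-type 1 or wild-type 2, after quantile normalization, with eBayes with trend and robust, and with no genotype term. Of the carriers, the retinaldehyde dehydrogenase and the retinoic acid receptors on the lists, 0 passed (limma): Rxrb differed by -0.15, Rarg by -0.05, Fabp5 by -0.63, Rbp2 by -0.10 and Aldh1a3 by -0.22.

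Cyp26a1 and Dhrs3, known targets of retinoic acid that lower its level, were singled out after their values were seen. Cyp26a1 lay below the filter, at 5.33, 5.60 and 5.23 in wild-type and 5.34, 5.27 and 5.16 in mutant hearts, so it was not tested although its promoter holds the same kind of repeat as that of Rarb. Dhrs3, which turns retinaldehyde back into retinol, read 7.06, 7.53, 7.53 and 7.45 in the eI hearts, wild-type first, and 6.93 and 6.67 in the eM hearts. It did not pass the threshold (-0.59, limma adjusted p = 0.073). Both eM hearts lay below every eI heart, as for 23.8% of all genes.

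The genes most like a member were read by Pearson's r over the 6 hearts, among 13571 other genes. These are descriptions over few hearts, of which 2 are eM, and 44.6% of genes are without overlap between eM and eI. The closest to Aldh1a2 were Bcap29 (r = 0.997), Nfib (0.994) and Tecr (0.994), and to Aldh1a1 Rims3 (0.995), Rcbtb1 (0.995) and Dync1h1 (0.994). The closest to Crabp2 were Tmx1 (0.996), Pde12 (0.995) and Recql (0.995), and to Crabp1 Rnf170 (0.985), Dimt1 (0.984) and Uhmk1 (0.983).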

How the data were processed

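Per the submitters' processing notes, the authors made the deposited log2 intensities with RMA, with no version given. The sources used here give no detection calls and no settings of it. Each heart was taken as 1 animal, since the design text speaks of 6 mice. Groups and replicate numbers come from titles and the letters from descriptions.

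Of 45101 probe sets, 64 controls were left out; 34945 named 1 gene, 932 several and 9160 none, per the platform annotation. The RefSeq table (GRCm38.p6) matched 34741 gene IDs and changed 0 symbols. Probe sets with means in the lowest 40% (up to 5.38) were not tested. A gene stands by its probe set of highest mean. limma 3.58.1 in R 4.3.3 (lmFit, eBayes, two-sided, Benjamini-Hochberg over 27022 probe sets, threshold 0.05) was fitted on all 6 arrays, without covariate for genotype and with genotype as a term for the letters. Exact permutation tests of single genes were two-sided. The number of arrays limits the precision. The fits were checked on simulated data. Plots used matplotlib 3.10.9 (Python 3.11.15).

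Members and lists were chosen with earlier results of these data known. Named were all 9 genes, pathway genes called in either comparison, else up to 2 per role by smallest p, the first 3 markers of a list, and the 3 genes most like each of the 4 members of largest spread. Krt8, Sox9, Afp, Tnnt2, Myh7, Myh6, Ryr2, Ephb4, Xist, Aldh1a7, Cyp26a1 and Dhrs3 were chosen after their values were seen.

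Same-numbered hearts deviated together from the group means (correlations of 0.18, 0.36 and 0.74 over all tested probe sets). By the rule used here the numbers thus count as paired, although only the titles give them, and number 3 is the eM pair. Same-numbered hearts also share their letters, and differently numbered hearts were not compared. The correlations therefore cannot tell a pairing from the letters. Alternatives were no filter, a filter leaving out the lowest 60%, quantile normalization, median centring, eBayes with trend and robust, the replicate number or the letters as a block, eI hearts alone, the Xist level as a covariate, no genotype term, other probe set choices, and leaving out each heart.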

Additional observations from a re-analysis of the deposited data

How the results depend on the processing

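Between genotypes, with the replicate block limma called 0 probe sets and 0 of the 9 genes (adjusted p = 0.9997 for each), and the block changed no call. Without each heart in turn 0 to 2 probe sets and 0 of the 9 genes were called. Uncalled differences without each heart in turn ran from -0.49 to 0.57 for Aldh1a1, -0.22 to 0.54 for Aldh1a2, -0.33 to 0.26 for Crabp1, -0.16 to 0.13 for Crabp2, 0.04 to 0.18 for Rara, -0.23 to 0.070 for Rarb, -0.020 to 0.029 for Rxra, -0.043 to -0.0018 for Cyp26b1 and -0.11 to 0.024 for Stra6. Their sign also turned with the Xist level as a covariate for Aldh1a1 (-0.76), Crabp2 (-0.16), Cyp26b1 (0.012) and Rxra (0.0051), and in eI hearts alone for Crabp2 (-0.0046) and Cyp26b1 (0.0063). For Rxra it turned at the probe set of largest spread (0.078) and for the mean of its tested probe sets (0.037).

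Between eM and eI hearts 2 of the 9 genes were called, and 1 with no filter, 1 with each array centred on its median and 1 with the Xist level as a covariate, where 1114 probe sets were called in place of 3160. Without each heart in turn 0 to 3 of the 9 genes and 1 to 4333 probe sets were called. Uncalled differences then ran from -0.33 to 0.18 for Crabp1, -0.024 to 0.044 for Cyp26b1, -0.038 to 0.21 for Rara, -0.043 to 0.0038 for Rxra and -0.19 to 0.043 for Stra6. That of Cyp26b1 was -0.00093 after quantile normalization. Aldh1a1 and Rarb kept their direction in all 13 alternatives. The filter leaving out the lowest 60% of probe sets left no value for Rara, Crabp2, Cyp26b1 and Stra6. Counts for the other pathway genes under each alternative were added after seeing the data.

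With 3 hearts a genotype, the precision is that of the intervals given, and each call by the letters rests on 2 eM hearts. Signal over background cannot be judged for the dimmest genes, since no detection calls were used.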
